A study of Mus musculus with 8 samples.

Results

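The genes described here are the G1 cyclins, their kinases and the Rb-E2F pair that these kinases act on: Ccnd1, Ccnd2, Ccnd3, Ccne1, Ccne2, Cdk2, Cdk4, Cdk6, Rb1 and E2f1. They were taken from a list of 10 gene symbols by asking for a transcript cluster (the array's unit of measurement for a gene) annotated to that symbol alone, and for Rb1, which has 3 such clusters, by keeping the brightest. Of the 10 genes 9 were found, among 30738 genes measured in all. Ccnd1 is not analysed here, because its cluster also carries the symbol of a microRNA gene.

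RNA on 8 arrays came from primary mouse cultures in which radial glial progenitors were turned into ependymal cells, the multiciliated cells that line the brain ventricles, over 2 weeks. By their titles 4 samples were untreated, kept in DMEM/F12 with serum and antibiotics, and 4 had received 20 ng/ml epidermal growth factor (EGF) in the same medium from the start of differentiation. The labels disagree: the source names call the untreated samples DMSO treated and the EGF samples MLN4924 treated, MLN4924 being an inhibitor of cullin neddylation, so "EGF" below stands for the arrays with that title. Strain, age, the number of animals and whether replicates were separate cultures are not given in the labels used, and a p-value here covers the spread among the 8 arrays alone, and part of that spread may be technical.

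As background, a cell leaves G1 when D-type cyclins, made in response to growth factors, join CDK4 or CDK6 and begin to phosphorylate the retinoblastoma protein. Rb then releases E2F transcription factors, which switch on the E cyclins and the enzymes of DNA synthesis, and cyclin E with CDK2 completes the phosphorylation. Multiciliated precursors do not divide, yet are known to reuse parts of this machinery while they multiply their centrioles.

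The G1 genes did not move as a block. With EGF E2f1 rose 2.32-fold, Cdk2 1.56-fold and Ccnd2 1.39-fold, whereas both E cyclins fell, Ccne2 1.96-fold and Ccne1 1.56-fold, and Cdk6 fell 1.43-fold (n = 4 arrays per group). Smaller rises of Ccnd3 and Rb1 passed with the deposited values but not under every other scaling of the arrays, and Cdk4 did not pass. Of the 9 genes 5 rose, 3 fell and 1 did not pass an adjusted p of 0.05 in limma, a linear model fitted over all genes with Benjamini-Hochberg adjustment.

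Those counts stand against a broad background. In the same fit 60.3% of all genes passed, 39.7% upward and 20.7% downward, so a call alone sets none of these genes apart. The median absolute log2 change was 0.52 over the 9 genes and 0.29 over all genes, but all 9 are among the 15369 genes whose mean over the 8 arrays was above the median of all genes. Of those brighter genes, a background added after seeing the data, 75.3% passed (40.4% upward, 34.9% downward), and their median absolute log2 change was 0.51. The members as a set were thus close to genes of like brightness in the size of their changes. The deposited arrays are not on a common median (4.56 to 4.60 untreated, 4.71 to 4.82 EGF), and the median log2 change of all genes was 0.17. Fold changes, intervals and limma tests below use the deposited values without subtracting that shift, unless another scaling is named. The share of calls that were upward was 65.8%. It was 48.8% when the arrays were quantile normalized again, 40.2% with array medians set equal, and 43.0% with cyclic loess. Pearson's r between arrays of a group was 0.994 to 0.997 across clusters, and each of the 9 genes lay above the median of its array on all 8 arrays, Ccne1 by the least (1.12 to 2.22 on the log2 scale). In bulk cultures fewer cells of a type and less RNA per cell cannot be told apart.

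**Figure D1:**
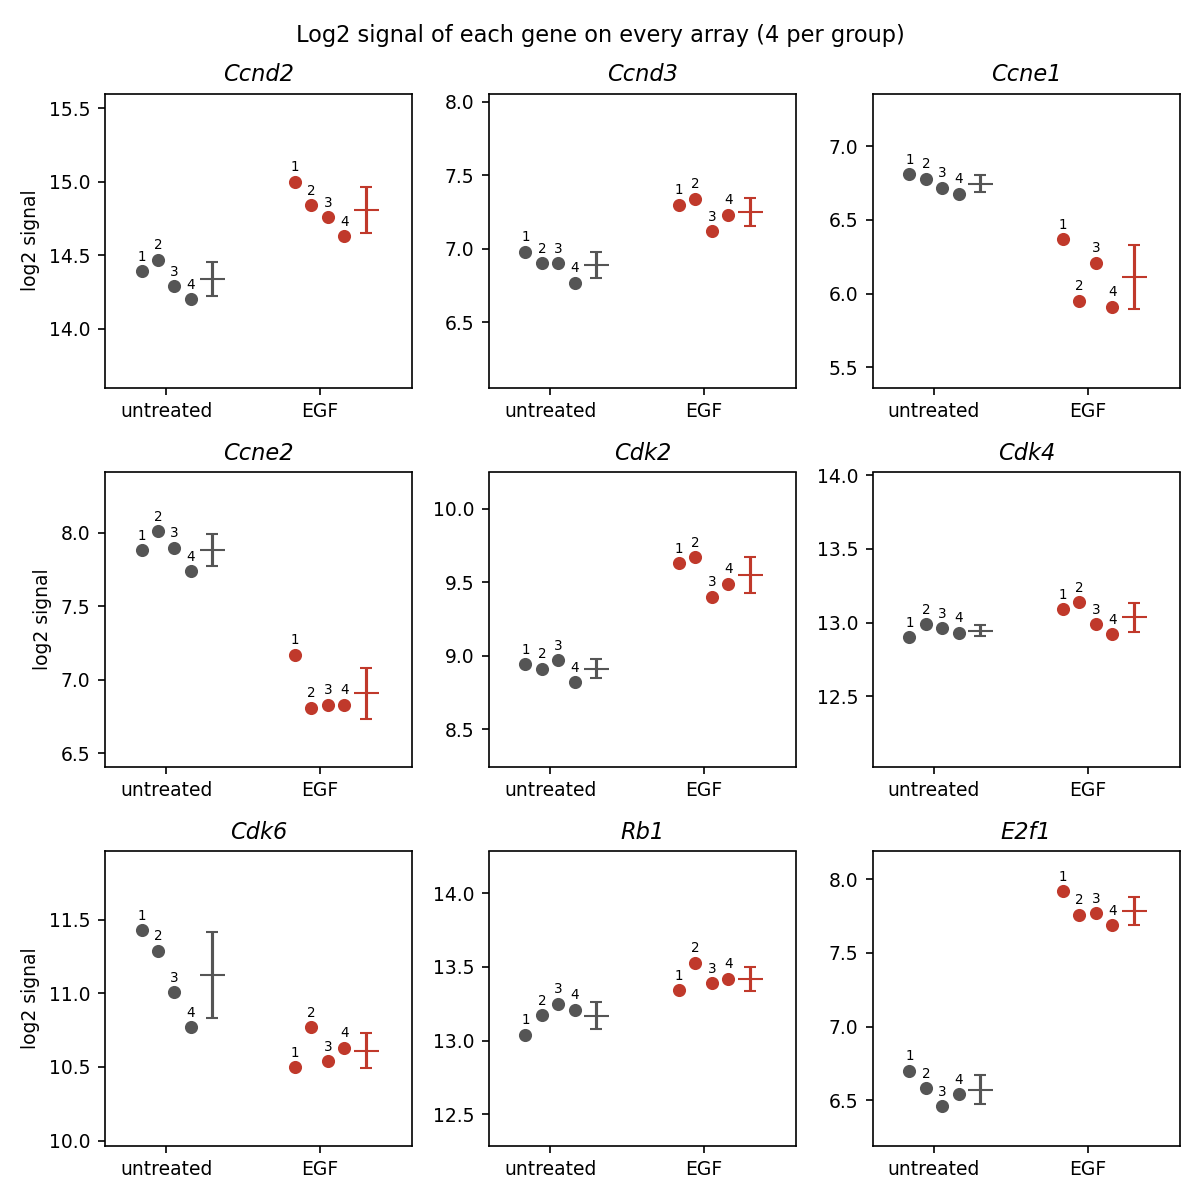
Log2 signal (vertical axis, the same span of 2 log2 units in every panel) of each gene on the 4 untreated and 4 EGF arrays, with replicate numbers beside the points and the mean ± SD beside each group. E2f1, Cdk2, Ccnd2, Ccnd3 and Rb1 have every EGF array above every untreated array, Ccne1 and Ccne2 have every EGF array below, and the groups touch or overlap for Cdk6 and Cdk4.

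Among the D-type cyclins, the growth factor sensors of the cycle, Ccnd2 had untreated log2 signals of 14.39, 14.47, 14.29 and 14.20 (replicates 1 to 4, the order used throughout). With EGF its signals were 15.00, 14.84, 14.76 and 14.63. All EGF arrays lay above all untreated arrays. The log2 fold change was 0.47 ± 0.09 (SE; 95% interval 0.26 to 0.68), with a limma adjusted p of 0.0015. It kept its call under the 3 other scalings, at 0.27 to 0.35 with an adjusted p of at most 0.038.

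Ccnd3, the remaining D-type cyclin measured, read 6.98, 6.90, 6.90 and 6.77 without EGF and 7.30, 7.34, 7.12 and 7.23 with it. The groups again did not overlap, and the log2 fold change was 0.36 ± 0.07 (limma adjusted p = 0.0018). After centring each array on its median it was 0.17 (limma adjusted p = 0.13), which ended the call. The array also carries a cluster for a pseudogene copy, Ccnd3-ps, and how far the copy's transcript adds to the Ccnd3 signal was not tested.

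The E cyclins, which activate CDK2 at the entry to S phase, moved the other way. Ccne2 read 7.88, 8.01, 7.90 and 7.74 in the untreated arrays and 7.17, 6.81, 6.83 and 6.83 in the EGF arrays. EGF replicate 1 was the highest of its group, and still lay below every untreated array. Ccne2 had the largest fall of the 9 genes, -0.97 ± 0.10 on the log2 scale (95% interval -1.19 to -0.76, limma adjusted p = 1.1e-05), and without EGF replicate 1 it was -1.06.

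Ccne1 was tightly grouped without EGF, at 6.81, 6.78, 6.72 and 6.68, and more spread with it, at 6.37, 5.95, 6.21 and 5.91. No EGF array reached the untreated range. The log2 fold change was -0.64 ± 0.10 (limma adjusted p = 0.00041), and it was -0.66 to -0.82 under the 3 other scalings.

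The 3 kinases went 3 ways. Cdk2, the partner of cyclin E and later of cyclin A, read 8.94, 8.91, 8.97 and 8.82 untreated and 9.63, 9.67, 9.40 and 9.49 with EGF. The gap between the groups exceeded the range within either. Its log2 fold change was 0.64 ± 0.08 (95% interval 0.47 to 0.81, limma adjusted p = 4.4e-05), and 0.45 to 0.64 under the other scalings.

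Cdk4, a partner of the D-type cyclins, read 12.90, 12.99, 12.96 and 12.93 untreated and 13.09, 13.14, 12.99 and 12.92 with EGF. The ranges overlapped, with EGF replicates 3 and 4 within the untreated range. The log2 fold change was 0.09 ± 0.07 (95% interval -0.06 to 0.24, limma adjusted p = 0.26), and its sign turned under the 3 other scalings (-0.02 to -0.10).

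Cdk6, the second partner of the D-type cyclins, read 11.43, 11.29, 11.01 and 10.77 untreated and 10.50, 10.77, 10.54 and 10.63 with EGF. Untreated replicate 4 and EGF replicate 2 had the same value, so the groups touched, and the untreated range (0.66) was the widest of any of the 9 genes in either group. The log2 fold change was -0.52 ± 0.13 (95% interval -0.82 to -0.21, limma adjusted p = 0.0082), and -0.55 to -0.70 under the other scalings.

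The promoters of Cdk2 and Cdk4 are shown because the 2 kinases act next to each other in G1 and changed unequally. RefSeq (build GRCm38.p6) windows of 300 bases, 250 before and 50 from the gene start, were available for 6 of the 10 listed genes. Only for Cdk2, Cdk4, Ccne1 and Ccnd3 did a window lie at the outermost start of the gene. Capitals mark matches to 4 E2F words (TTTCCCGC, TTTCGCGC, TTTGCCGC, TTTGGCGC, either strand) or to the E-box CACGTG, which Myc with its partner Max can bind. The windows run 5′ to 3′ on the gene's strand, minus for Cdk2 (chr10:128705002-128705301) and plus for Cdk4 (chr10:127063285-127063584).
Cdk2: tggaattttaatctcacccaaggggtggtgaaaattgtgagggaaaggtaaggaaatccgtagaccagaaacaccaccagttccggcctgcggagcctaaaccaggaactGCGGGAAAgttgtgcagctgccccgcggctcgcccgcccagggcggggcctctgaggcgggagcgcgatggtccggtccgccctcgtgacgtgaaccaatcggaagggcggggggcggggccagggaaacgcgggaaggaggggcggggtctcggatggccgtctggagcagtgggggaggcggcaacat
Cdk4: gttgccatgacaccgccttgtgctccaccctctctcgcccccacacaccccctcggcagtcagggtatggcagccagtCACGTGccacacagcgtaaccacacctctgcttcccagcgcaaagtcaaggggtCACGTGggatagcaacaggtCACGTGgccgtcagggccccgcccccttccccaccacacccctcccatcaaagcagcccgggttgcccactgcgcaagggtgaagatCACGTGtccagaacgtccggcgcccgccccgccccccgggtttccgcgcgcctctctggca

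The Cdk2 window holds 1 match to the E2F words, TTTCCCGC on the opposite strand starting 140 bases before the gene start. Cdk4 has 4 E-boxes in its window, at 172, 118, 98 and 11 bases before the start. Of 32851 mouse windows of the same length 2.26% hold one of the E2F words and 7.15% hold the E-box. The Ccne1 and Ccnd3 windows hold neither, which says only that these letters are not in them. In all 5 motifs were searched, none of them planned: the E2F words, the CHR element TTTGAA, the GC box GGGCGG and the AP-1 word TGAGTCA at first, and the E-box after its repeats had been seen in the letters of Cdk4, so its count there supports nothing. The CHR element (17.9% of windows) and the AP-1 word (5.2%) are in none of these 4 genes' windows at the outermost start. The GC box, in 35.7% of windows, occurs 6 times in the Cdk2 window, 3 times in that of Cdk4, 4 times in Ccne1 and 2 times in Ccnd3. Matches are letters in a sequence and were not measured as binding sites here.

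Rb1, the brake that the cyclin-CDK pairs release, read 13.04, 13.17, 13.25 and 13.21 untreated and 13.34, 13.53, 13.39 and 13.42 with EGF. The groups did not overlap, and the log2 fold change was 0.25 ± 0.07 (limma adjusted p = 0.011). It was 0.07 to 0.13 under the 3 other scalings and did not pass there (limma adjusted p up to 0.58). The dimmer Rb1 clusters disagreed with each other. The next brightest rose from 6.52 ± 0.15 to 7.14 ± 0.16 (SD, n = 4, limma adjusted p = 0.00039 over all named clusters). The dimmest went from 4.86 ± 0.55 to 4.60 ± 0.10, near the array medians, and did not pass (limma adjusted p = 0.32). With the mean of the 3 clusters the log2 change was 0.20 (limma adjusted p = 0.15).

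E2f1, an activating E2F that Rb holds in check, had the largest change of the 9 genes with the deposited values. Its log2 signal was 6.70, 6.58, 6.46 and 6.54 without EGF and 7.92, 7.76, 7.77 and 7.69 with EGF. Every EGF array lay above every untreated array, with a gap wider than the range of either group. The log2 fold change was 1.22 ± 0.08 (SE; 95% interval 1.05 to 1.38, limma adjusted p = 3.5e-07), and 1.03 to 1.21 under the other scalings. At least 2-fold and past the threshold, a bar that 13.7% of all genes met, E2f1 was the sole member with the deposited values. With array medians set equal Ccne2 met it too and changed more than E2f1 (-1.16 against 1.03). The same held with cyclic loess (-1.11 against 1.07).

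**Figure D2:**
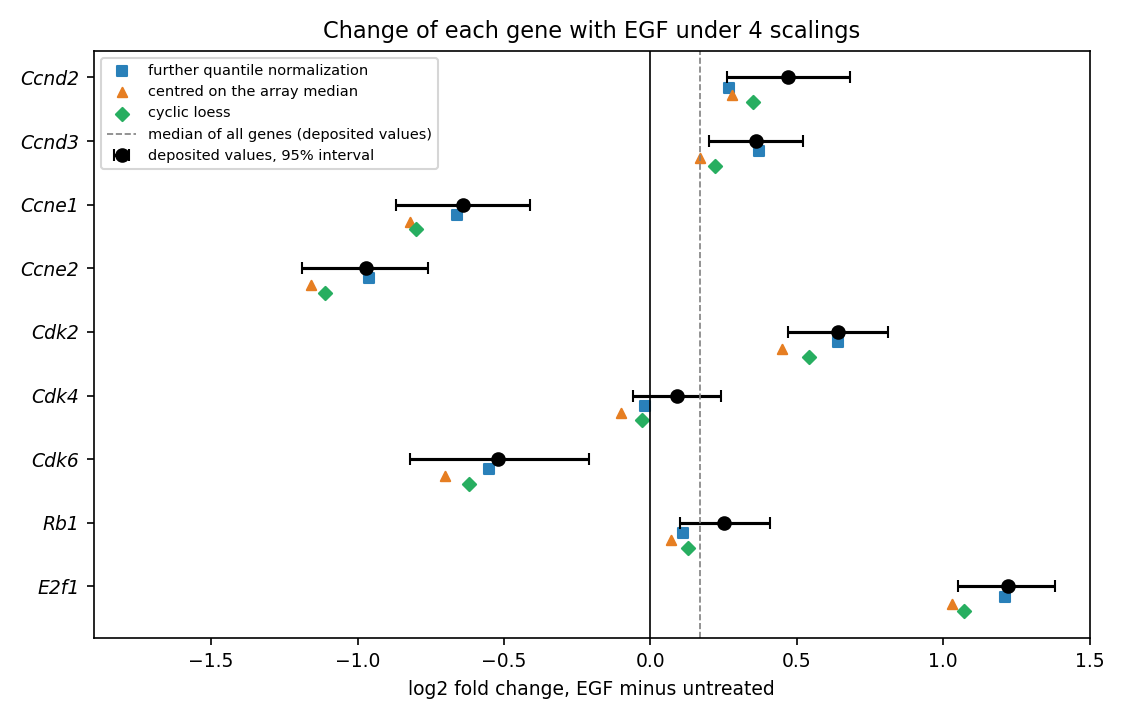
Log2 fold change (EGF minus untreated, horizontal axis) of each gene with the deposited values and its 95% interval (black), and under 3 other scalings of the arrays (coloured). E2f1 (1.22) and Ccne2 (-0.97) stand at the ends under all 4 scalings, while Cdk4, Rb1 and Ccnd3 lie nearest to the median of all genes (0.17, dashed).

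Groups did not overlap in 5 of the 9 genes upward and 2 downward. Over all genes 54.0% had groups that did not overlap, 34.0% upward and 19.9% downward. Leaving out any 1 of the 8 arrays left 5 genes that rose and 3 that fell.

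Whether close relatives and partners changed unequally was tested within arrays, as the log2 signal of one gene minus that of the other, where an offset shared by an array cancels. Ccnd1 takes no part, which left 6 of 8 planned pairs. Of the 6, 5 passed a two-sided exact permutation test over the 8 arrays (p = 0.0286, and 0.0343 adjusted over the 6 pairs). The unadjusted p is the smallest that 4 against 4 arrays allow. How many pairs of other genes would pass was not tested, and 54.0% of all single genes had groups that did not overlap. The kinase pairs share genes and are not independent. The largest inequality was between kinases: Cdk2 minus Cdk6 went from -2.49 to -1.95 untreated to -1.14 to -0.87 with EGF, a shift of 1.15 ± 0.15 (SE). Cdk2 gained 0.55 ± 0.05 on Cdk4, and Cdk4 gained 0.60 ± 0.16 on Cdk6. The E cyclins both fell, Ccne2 by 0.34 ± 0.08 more than Ccne1. Rb1 lost 0.96 on E2f1, the shift of Rb1 minus E2f1 being -0.96 ± 0.12. The D-type cyclins Ccnd2 and Ccnd3 differed in change by 0.11 ± 0.08 (exact permutation p = 0.229), and the sign of that difference turned after a further quantile normalization (-0.10).

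**Figure D3:**
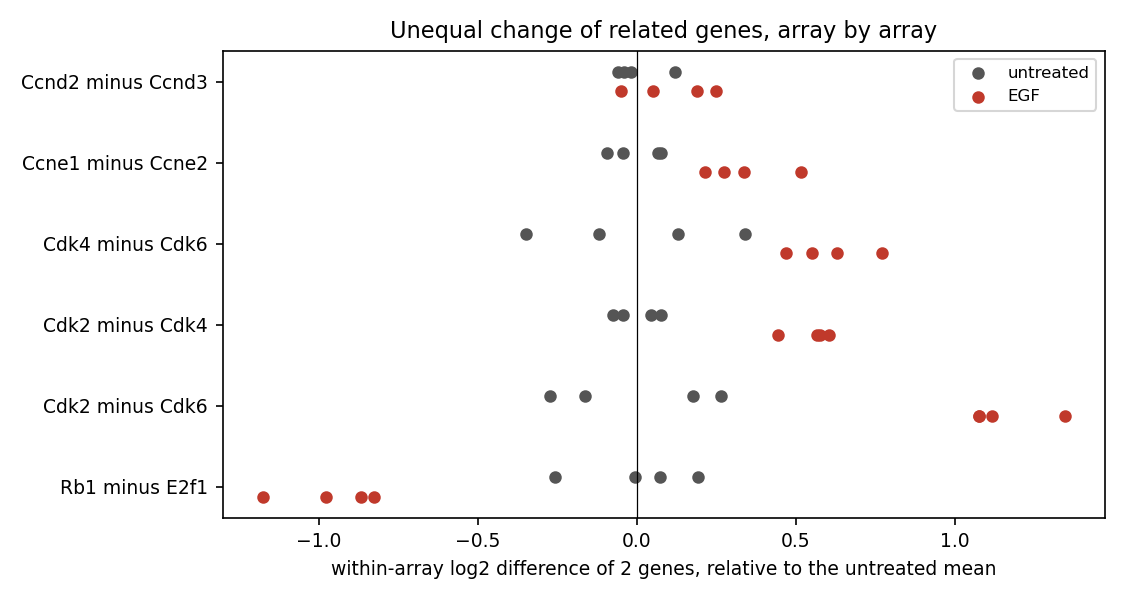
Within-array log2 difference between 2 genes, relative to its untreated mean (horizontal axis), for 6 pairs, with 1 point per array. EGF and untreated arrays separate in 5 pairs and overlap for Ccnd2 minus Ccnd3, and the widest separation is that of Cdk2 minus Cdk6 (1.15).

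The other E2F factors and pocket proteins also split. Rises and falls were equal in number, 4 each among 11 measured genes, and the other 3 missed the threshold (median log2 change -0.09, against 0.17 for all genes). With array medians set equal 2 rose and 5 fell. As a background for this list and those below, 39.7% of all genes rose and 20.7% fell with the deposited values. Among the brighter genes 40.4% rose and 34.9% fell, so a split alone does not set this list apart. E2f5, a repressive E2F, rose by 1.29 on the log2 scale (8.62 ± 0.04 to 9.91 ± 0.03, SD, n = 4), and Rbl2, the p130 pocket protein typical of resting cells, rose by 0.78. E2f7, an atypical repressor that restrains E2f1, fell by 1.46 (8.21 ± 0.17 to 6.76 ± 0.07), and E2f4 fell by 1.12 (9.67 ± 0.03 to 8.55 ± 0.26). E2f1 and E2f7 thus moved in opposite directions, and so did E2f4 and E2f5.

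Inhibitors of the kinases were mostly higher. The median log2 change of the 8 genes was 0.93, with 6 that rose, 1 that fell and 1 short of the threshold, and the 3 other scalings gave these counts too. Cdkn1a (p21) and Cdkn1b (p27), which bind CDK2 complexes, rose by 2.19 and 1.52 on the log2 scale. Cdkn1b read 10.96 to 11.04 in the untreated arrays, with a mean of 11.00 ± 0.03, and 12.52 ± 0.08 with EGF (SD, n = 4). Cdkn2d and Cdkn2c, INK4 inhibitors of CDK4 and CDK6, rose by 1.48 and 0.99. The inhibitor that fell, Cdkn2b, is an INK4 gene too (-0.46, limma adjusted p = 0.00035). A rise of E2f1, Cdk2 and Ccnd2 was thus measured in the same arrays as a rise of most CDK inhibitor genes.

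Regulators of CDK activity and of the G1 to S step held 18 genes, with 7 falls, 5 rises and 6 that missed the threshold (median -0.07). With array medians set equal there were 9 falls and 3 rises. Myc, a growth regulator induced by mitogens, fell by 1.29 (11.27 ± 0.12 to 9.99 ± 0.27), and Ccnc, cyclin C, fell by 1.53. Cdc25b, a phosphatase that activates CDKs, rose by 1.17. Ccna1, a cyclin A best known from the male germ line, fell from 10.70 ± 0.31 to 5.21 ± 0.12 (SD, n = 4), the largest change of the list. Ubiquitin ligase parts that turn over G1 regulators shifted a little: 7 of 12 fell, 2 rose and 3 missed the threshold (median -0.21; 0 rose and 10 fell with array medians set equal or with cyclic loess). Skp1 fell by the most (-0.56), with Dtl at -0.43, Ambra1 at -0.39 and Cul4b at -0.36. A further list joins the DREAM complex, which represses cycle genes in resting cells, with MuvB and Mybl2. Of its 5 measured genes Lin37 rose by 0.83, Mybl2 fell by 0.26 and the other 3 did not pass. With array medians set equal or with cyclic loess 1 rose and 3 fell.

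E2F targets of DNA synthesis went both ways, with 14 of 30 falling, 6 rising and 10 short of the threshold (median -0.07; -0.13 to -0.26 under the other scalings, with 2 to 6 rising and 14 to 16 falling). Tyms, which makes thymidylate, fell by 1.43, the replicative helicase gene Mcm5 fell by 0.92 and the chromatin assembly gene Chaf1b fell by 0.76, whereas the mismatch repair gene Msh6 rose by 0.92. Among 22 G2 and M phase genes 16 rose, 0 fell and 6 missed the threshold (median 0.55; 0.36 to 0.43 and 12 to 14 rising under the other scalings). The lists were not tested against each other. Hmmr, Aurkb, Bub1b and Ndc80, all of the mitotic spindle or its checkpoint, rose by 1.46, 1.13, 1.09 and 0.98, and the proliferation marker Mki67 by 0.62.

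**Figure D4:**
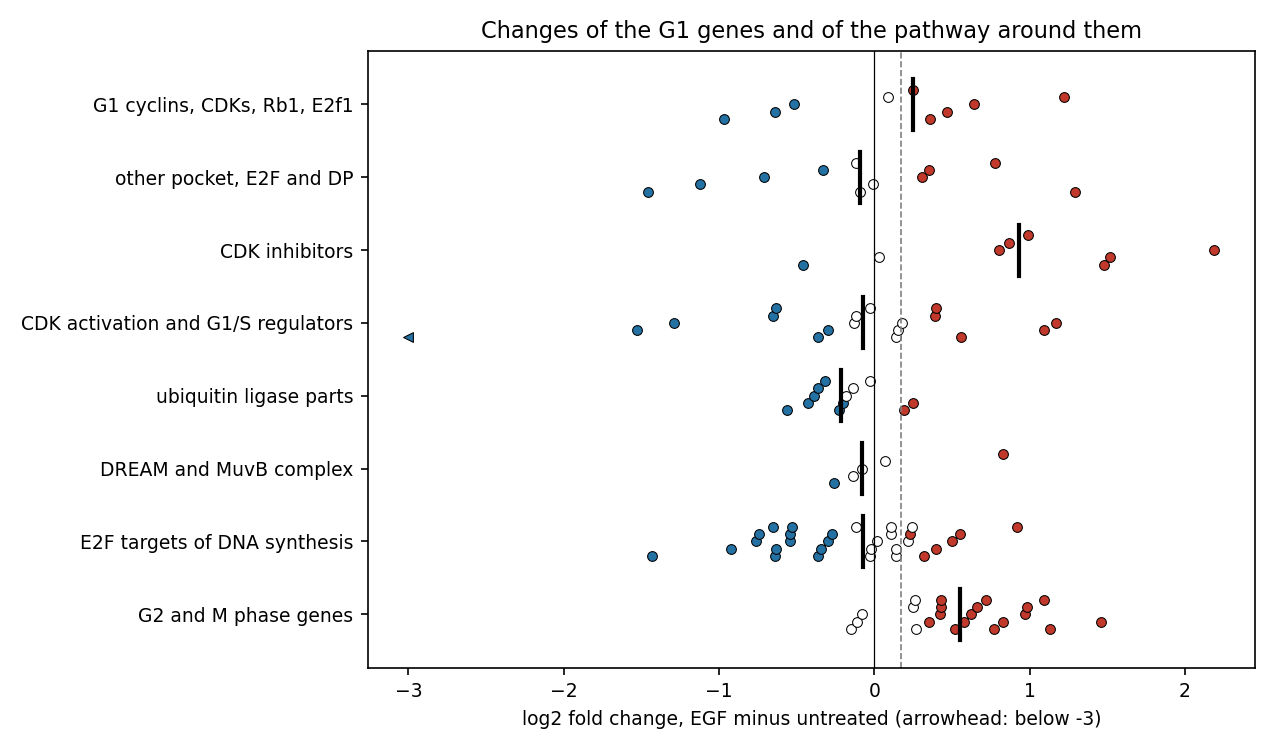
Log2 fold change (EGF minus untreated, horizontal axis) of every measured gene of 8 lists, with genes that rose in red, genes that fell in blue, genes that did not pass in white and the list median as a bar. The CDK inhibitors (median 0.93) and the G2 and M phase genes (0.55) lie mostly to the right of the median of all genes (0.17, dashed), and the E2F targets of DNA synthesis spread to both sides.

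One array per group ran high in these lists. EGF replicate 1 was the highest of its group in 21 of 22 G2 and M phase genes and in 27 of 30 DNA synthesis genes, and untreated replicate 1 in 20 and 24. List counts without single arrays were added after seeing the data. Without EGF replicate 1, 14 G2 and M phase genes rose and 1 fell, and 5 DNA synthesis genes rose and 14 fell. Without untreated replicate 1 the counts were 16 and 0, and 7 and 14. Among the 9 G1 genes EGF replicate 1 was the highest of its group in 4, and untreated replicate 1 also in 4.

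Cell type markers moved in the same arrays. All 20 ependymal and multiciliated markers fell (list mean 10.82 to 11.25 untreated, 5.95 to 6.06 EGF), so the labelled cell type was marked in the untreated arrays, while the EGF list mean lay closer to the array medians. All 17 measured microglia markers fell (8.64 to 9.56, then 5.93 to 6.26), as did 16 of 18 neuroblast and neuron markers (8.90 to 9.40, then 7.11 to 7.20) and 9 of 12 fibroblast and mural cell markers (8.01 to 8.79, then 6.93 to 7.03). Of 13 astrocyte markers 11 rose and 2 fell (9.92 to 9.95, then 11.30 to 11.54). The changes were uneven, with a median log2 change of 0.52 and a range of -1.31 to 6.18. The 2 that fell were Gfap (-0.48) and Aqp4 (-1.31). Oligodendrocyte lineage markers went 4 up and 5 down of 12, endothelial markers 4 up and 3 down of 10, and choroid plexus markers 3 down of 8. The endothelial list mean was low (5.36 to 5.57, then 5.02 to 5.06). Of its rises, Cldn5 and Tie1 lay below the array medians in both groups, so they say little about that cell type. The part of these cell types in the changes of the G1 genes was not tested.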

How the data were processed

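The deposited value table holds log2 signals of 65956 transcript clusters on 8 arrays. That they are log2 follows from their range and from the headers of the other table. Per the submitters' processing notes the tools were RMA, affy and limma, with no version or role, and how arrays were centred is not stated there. Per the file headers, the other deposited table compares ctrl and gf by log2 averages, a p-value and an FDR. It has 4136 rows, each with an absolute difference of at least 1 and p under 0.05.

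Clusters were named through the platform annotation and RefSeq (GRCm38.p6, names only): 31292 clusters had 1 gene, 31290 of them matched, and the brightest cluster per gene gave 30738 genes. Groups follow the titles. limma 3.58.1 (R 4.3.3, lmFit and eBayes, no block) was run on the deposited values without a filter, and tested on simulated data. Precision is limited by 4 arrays per group. Alternatives were 3 scalings, leaving out dim clusters, averaging a gene's clusters, symbols as given, every cluster, array weights, trend and robust, a replicate block, adjusted p under 0.01, treat at 1.5-fold and leaving out each array. Counts of the pathway lists under other scalings and without single arrays were added after seeing the data.

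The members and lists were chosen with earlier results of these data known; no motif was planned, and 1 of 5 was added after the promoter letters were read. Genes named beside the members are up to 4 of each list (3 for markers) with the largest change among those that passed, with Cdkn1a, Cdkn1b and Mki67 always. Gfap, Aqp4, Cdkn2b, Cldn5, Tie1, Kif11, Ube2c and Mcm6 were named after their values were seen. Genes with no cluster of their own, Ccnd1 among them, were left out. Tables and plots used Python 3.11.15, pandas 2.3.3, numpy 2.4.6 and matplotlib 3.10.9.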

Additional observations from a re-analysis of the deposited data

Results flagged for a closer look

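Ccne2 in EGF replicate 1, at a log2 signal of 7.17, stood apart from the other 3 EGF arrays (6.81, 6.83 and 6.83): its gap to the nearest was 0.944 of the group's range, over the 95% limit of Dixon's test for 4 samples. It was 1 of 18 groups of 4 arrays checked, and chance alone gives about 1 in 20. The fall of Ccne2 was -1.06 on the log2 scale without that array and -0.97 with it.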

How the results depend on the processing

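Scaling, the threshold and, for Rb1, the choice of cluster changed calls of the G1 genes. After centring each array on its median 3 genes rose in place of 5, without Ccnd3 and Rb1, and Cdk4 turned to -0.10 (-0.03 after cyclic loess, -0.02 after a further quantile normalization, which also turned Ccnd2 minus Ccnd3 to -0.10). Against a 1.5-fold change (treat) 5190 genes passed in place of 18549, with 1 of the 9 genes up (E2f1) and 1 down (Ccne2). Rb1 also lost its call at an adjusted p under 0.01 and with the mean of its clusters (0.20, limma adjusted p = 0.15). Whether replicate numbers pair the samples is not said in the labels. The deviations of same-numbered arrays correlated at -0.084 to -0.003, and 0 of 8 arrays correlated best with their own number. Such correlations over all genes cannot decide whether samples were paired. Replicate 1 ran high in both groups in most G2 and M phase and DNA synthesis genes. Whether that reflects pairing was not tested. With the replicate block 17437 genes passed, and 5 of the 9 rose and 3 fell. E2f1 and Ccne2 kept their direction and call in all 20 alternatives, with log2 changes of 1.03 to 1.26 and -1.16 to -0.93. Leaving out single arrays gave 16426 to 18751 genes. The pairs have no test there, since 3 against 4 arrays cannot go below p = 0.0571 in the exact permutation test. Only 4 arrays per group and the absence of detection calls limit what dim signals such as Ccne1 can show.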

Other observations

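Cell cycle genes that multiciliated precursors are known to reuse fell in 9 of 10 cases (median log2 change -1.47), with the same counts under the 3 other scalings. Falls made up 20.7% of all genes and 34.9% of the brighter genes. Myb, Cdc20b and Ccno, a cyclin relative needed for centriole amplification, fell by 6.20, 5.90 and 4.34, and Plk4, the kinase that starts centriole duplication, fell by 1.80. E2f4, E2f7 and Tfdp1 belong to this list as well as to the E2F and DP factors, and E2f5 was the member that rose. All 20 ependymal and multiciliated markers, Ccno among them, fell in the same arrays.

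The profile of E2f1 over the 8 arrays was most closely matched by Adgrl2 (root mean square difference 0.043 on the log2 scale), Anp32e (0.049) and Pold2 (0.050), after each gene's untreated mean was subtracted. Their log2 changes were 1.20, 1.25 and 1.19. That these lie close to the 1.22 of E2f1 follows from how the genes were picked.

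The authors' deposited table lists 0 of the 9 G1 genes, E2f1 included, although the deposited signals of E2f1 differ by more than 1. Of 22 genes of the surrounding lists in the authors' deposited table, Kif11, named after its values were seen, has the opposite sign there (10.54 in ctrl, 9.40 in gf) from the deposited signals (12.30 ± 0.14 untreated, 12.54 ± 0.35 EGF, SD, n = 4; limma adjusted p = 0.19). Sizes differ as well, in both directions. The authors' log2 change is -1.48 for Cdc20b, -2.89 for Ccna1 and -3.88 for Myb, against -5.90, -5.48 and -6.20 in the deposited signals. For Ube2c and Mcm6 it is the larger in size, 1.77 and -1.61 against 0.58 and -0.64.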
